A study of Mus musculus with 6 samples.

Results

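The inhibitory and checkpoint receptors of group 2 innate lymphoid cells (ILC2s) were examined as a set of 10 genes, taken by name from the deposited table of 17438 genes, and all 10 were present. ILC2s are tissue lymphocytes that answer the alarm cytokine IL-33 with IL-5 and IL-13. The labels describe ILC2s sorted from lungs of mice, given IL-33, with RNA taken from cultured cells. There were 3 wild-type samples (WT1, WT2 and WT3) and 3 samples (KO1, KO2 and KO3) of the targeted allele that the labels write as B6.129S4-Cd48tm1Rsr/EpaulJ, here called Cd48 KO. Both groups carry the strain label CB57BL/6 and both received IL-33, so no untreated baseline was compared, and the labels give no age. Separate animals are not named as the source of the samples, so p-values refer to the spread among these 6 libraries, part of which may be technical.

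Checkpoint receptors are surface proteins that raise or lower the response of a lymphocyte to its activating signals. PD-1 (Pdcd1) recruits phosphatases when it binds PD-L1 (Cd274), CTLA-4 (Ctla4) competes for B7 ligands, and TIGIT, TIM-3 (Havcr2) and LAG-3 restrain T and NK cells. ICOS is a costimulatory receptor that ILC2s carry together with its ligand ICOSL, KLRG1 binds cadherins and marks mature ILC2s, and CD200R1 is an inhibitory receptor for CD200. PD-1 and CD200R1 are known as brakes on ILC2 cytokine release, and the ICOS pair is known to aid ILC2 survival.

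The genes lie on 6 chromosomes (GRCm38, the build called mm10 in the submitters' processing notes). Pdcd1 (chromosome 1, 94038305 to 94052553, minus strand), Ctla4 (chromosome 1, 60887000 to 60915832, plus strand) and Icos (chromosome 1, 60977927 to 61000320, plus strand) share a chromosome with Cd48, at distances of 77.6, 110.8 and 110.7 Mb. Ctla4 and Icos are neighbours, 62.1 kb apart. Klrg1 (122270596 to 122282882, minus strand) and Lag3 (124904361 to 124911705, minus strand) lie on chromosome 6. Tigit (43648867 to 43664146, minus strand) and Cd200r1 (44765736 to 44794978, plus strand) lie on chromosome 16. Havcr2 is on chromosome 11 (46454935 to 46481255, plus strand), Icosl on chromosome 10 (78069302 to 78083913, plus strand) and Cd274 on chromosome 19 (29367455 to 29388095, plus strand). AC119228.1 overlaps Cd274 on the opposite strand. Their reads cannot be told apart with certainty because strand counting is not given in the sources used here. Gm37039 overlaps Icos on the same strand, and Icos had a whole count in 0 libraries, so the division of its reads is uncertain.

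RefSeq promoter entries (GRCm38.p6) matched 6 of the 10 genes. The 250 bases before the annotated start are shown for the most abundant gene (Pdcd1), the gene that varied most between libraries among those above 1 CPM (Cd274) and a gene near the detection limit (Ctla4). Capitals mark matches to 4 motifs searched on both strands, namely the AP-1 motif TGANTCA, the GATA motif AGATAA, the STAT motif TTCNNNGAA and the NFAT motif TGGAAA.
Pdcd1, chr1:94052554-94052803, minus strand: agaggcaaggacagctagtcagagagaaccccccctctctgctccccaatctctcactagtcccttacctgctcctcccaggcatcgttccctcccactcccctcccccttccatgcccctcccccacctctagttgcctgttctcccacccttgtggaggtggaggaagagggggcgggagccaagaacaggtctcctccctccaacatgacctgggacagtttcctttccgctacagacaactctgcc
Cd274, chr19:29367188-29367437, plus strand: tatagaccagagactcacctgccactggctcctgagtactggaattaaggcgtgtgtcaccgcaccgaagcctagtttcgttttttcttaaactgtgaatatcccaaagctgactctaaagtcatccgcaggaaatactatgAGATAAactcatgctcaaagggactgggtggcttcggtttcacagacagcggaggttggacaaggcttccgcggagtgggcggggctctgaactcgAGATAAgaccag
Ctla4, chr1:60908775-60909024, plus strand: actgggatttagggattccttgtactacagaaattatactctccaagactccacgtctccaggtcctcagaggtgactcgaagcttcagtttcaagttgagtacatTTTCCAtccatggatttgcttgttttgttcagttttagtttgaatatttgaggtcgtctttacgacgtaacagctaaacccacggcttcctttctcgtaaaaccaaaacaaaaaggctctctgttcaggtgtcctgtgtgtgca
The Pdcd1 window held none of the 4 motifs. The Cd274 window held AGATAA at 108 and at 12 bases before the start, a motif found in 9.99% of 32851 promoter windows of this length. The Ctla4 window held TGGAAA once, on the opposite strand and beginning 144 bases before the start, a motif found in 18.6% of the windows. A match describes the letters only, and binding was not measured.

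Pdcd1 was the most abundant of the 10 transcripts and Lag3 the scarcest. Levels between genes are compared as CPM per kb, that is counts scaled to library size (CPM, with TMM factors) and divided by the length of the longest annotated transcript. Mean levels over the 6 libraries were 222.9 ± 46.3 (SD, n = 6) for Pdcd1, 108.8 ± 10.3 for Icos, 96.4 ± 2.12 for Cd200r1 and 65.1 ± 5.43 CPM per kb for Klrg1. These 4 genes stood above 97.8%, 94.5%, 93.7% and 90.2% of tested genes of known length. The middle of the order held Havcr2 (12.6 ± 2.17), Icosl (12.03 ± 0.644), Cd274 (5.92 ± 1.82) and Tigit (4.09 ± 0.706 CPM per kb). Ctla4 stood at 0.435 ± 0.173 and Lag3 at 0.0815 ± 0.0365 CPM per kb. The ranges over libraries overlapped between the neighbours Icos and Cd200r1, between Havcr2 and Icosl, and between Cd274 and Tigit. Within libraries, the first gene of each pair was the higher in all but WT1, where it was the lower. The mean levels kept the order of the other libraries, and only WT1 showed the reverse. Without WT1, Icos (107.3 to 121.4) and Cd200r1 (92.7 to 97.9 CPM per kb) did not overlap, nor did Cd274 and Tigit, whereas Havcr2 and Icosl still did. With the longest-transcript length used here, the other neighbours in the order did not overlap. In this bulk RNA, fewer cells of a type and less RNA per cell cannot be told apart.

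**Figure D1:**
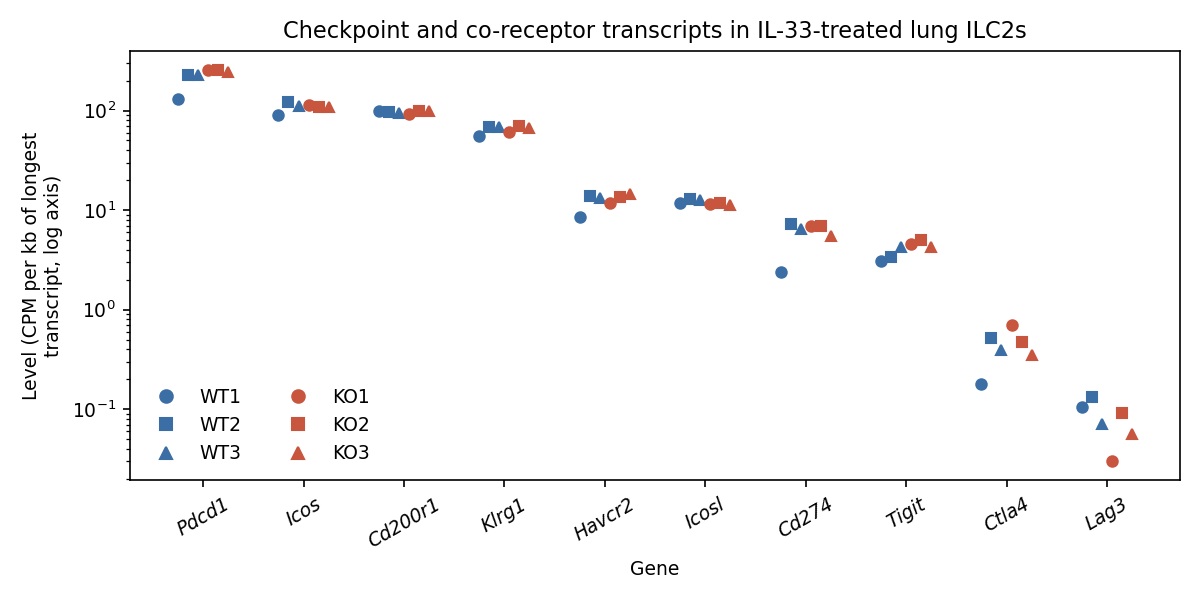
Level of each checkpoint and co-receptor transcript in CPM per kb (log axis) in the 3 WT (blue) and 3 Cd48 KO (red) libraries, ordered by mean level. Pdcd1 lies between 131.5 and 253.5 CPM per kb and Lag3 between 0.0305 and 0.133 CPM per kb, and WT1 is the lowest library for Pdcd1, Icos, Klrg1, Havcr2, Cd274, Tigit and Ctla4.

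The labels and the libraries were checked first. Cd48, the disrupted gene, stood at 58.2, 46.6 and 41.6 CPM in WT1, WT2 and WT3 and at 4.52, 5.59 and 4.40 CPM in KO1, KO2 and KO3. Library totals ran from 14928623 to 27450400 counts. All 10 listed ILC2 markers were present, Gata3 between 780.3 and 1417 CPM and the IL-33 receptor Il1rl1 between 610.6 and 1347 CPM, although Thy1 was at 6.05 to 12.4 CPM. WT1 stood apart, correlating less with the other libraries (Pearson's r across genes 0.922 to 0.932, log2 CPM) than those did among themselves (0.980 to 0.987), and log2 fold changes are therefore given with and without it. Of 10 listed T cell markers, 7 were in the table, and they summed to 202.1 to 263.0 CPM in WT and 141.1 to 162.1 CPM in KO. Most of this sum came from Trbc2 (120.3 to 146.2 CPM in WT, 91.2 to 100.6 CPM in KO) and Trbc1. The CD3 chain genes stood at 12.9 to 41.0 CPM (Cd3g), 0.492 to 2.67 CPM (Cd3e) and 0.0698 to 0.574 CPM (Cd3d), Cd247 at 9.28 to 13.6 CPM and Trac at 0 to 0.349 CPM. Over all marker lists 5 genes were called without WT1 (edgeR). These were Trbc2 and Cd3g, with log2 fold changes of -0.39 and -0.92 (adjusted p 0.0257 and 0.00690), the epithelial gene Epcam with -0.83 (adjusted p 0.0347), and the ILC2 genes Il2ra and Il5 with 0.31 and 0.29 (adjusted p 0.0200 and 0.0332). With all libraries their log2 fold changes were -0.47, -1.19, -0.82, 0.32 and -0.02, and none of the 5 was called (adjusted p 0.572 to 0.977, edgeR). The 8 macrophage and dendritic cell markers summed to 10.5, 25.7 and 33.6 CPM in WT1, WT2 and WT3 and to 6.83 to 16.6 CPM in KO. These groups overlapped only through WT1. The 7 epithelial markers summed to 31.4, 72.8 and 69.3 CPM in WT1, WT2 and WT3 and to 10.02 to 23.8 CPM in KO. The mast cell and basophil markers summed to 113.8 to 280.8 CPM in WT and 271.7 to 275.1 CPM in KO, mostly from Kit. Sums in WT and KO were 25.9 to 47.5 and 25.04 to 30.6 CPM for B cell markers. For endothelial and fibroblast markers they were 29.1 to 40.7 and 40.1 to 42.05 CPM. NK cell markers stayed at or below 1.17 CPM. T cells carry Pdcd1, Ctla4, Lag3, Tigit and Icos and myeloid cells carry Cd274, Icosl, Havcr2 and Cd200r1. The part of other cells in the values below was not tested.

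Setting KO beside WT addresses whether these receptors differ in ILC2s that lack CD48, itself a receptor of the SLAM family. None of the 9 genes that passed the low count filter was called by edgeR's quasi-likelihood test (Benjamini-Hochberg adjustment over all genes, threshold 0.05). With all 6 libraries 0 of 9 were called and 0 of 9 had an unadjusted p under 0.05, where 0.03% of 13317 genes were called and 6.89% had such a p. DESeq2 and limma-voom (also when libraries were weighted by quality) called 0 of 9 too, with 0 at an unadjusted p under 0.05. Without WT1, edgeR called 0 of 9, where 1.82% of 13643 genes were called, and 1 gene (Pdcd1) had an unadjusted p under 0.05, where 13.7% did. DESeq2 and limma-voom also called 0 without WT1, and Pdcd1 was again the 1 gene at an unadjusted p under 0.05. Adjusted p in edgeR ran from 0.690 to 0.976 with all libraries and from 0.228 to 0.990 without WT1. The median log2 fold change of the 9 genes was 0.16 with all libraries and -0.02 without WT1, beside -0.004 and 0.0005 over all tested genes. Of the 9, 7 had positive log2 fold changes with all libraries and 4 without WT1. Lag3 did not pass the filter.

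Pdcd1, the gene of PD-1, stood at 253.8, 437.8 and 438.9 CPM in WT1, WT2 and WT3 and at 489.3, 488.7 and 472.2 CPM in KO1, KO2 and KO3. Every KO library was above every WT library, and WT1 was far below the other WT libraries. Mean levels were 376.8 ± 106.6 CPM for WT (SD, n = 3) against 483.4 ± 9.68 CPM for KO (SD, n = 3). The log2 fold change was 0.36 (SE 0.22), with a 95% interval from -0.15 to 0.87 and an adjusted p of 0.690 (edgeR). Without WT1 it was 0.14 (SE 0.05), with an interval from 0.03 to 0.26 and an adjusted p of 0.228 (edgeR), which corresponds to a level 1.10 times that of WT (interval 1.02 to 1.19). The interval excludes 0 for this gene taken alone, but the difference did not pass the adjustment over all genes.

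Cd274, the gene of the PD-1 ligand PD-L1, stood at 8.73, 26.2 and 23.3 CPM in the WT libraries and at 25.3, 25.2 and 19.98 CPM in the KO libraries. WT1 was at 0.353 times the mean of WT2 and WT3, and the remaining libraries of both genotypes overlapped. The log2 fold change was 0.27 (SE 0.39, adjusted p 0.792, edgeR) with all libraries and -0.07 (SE 0.14, adjusted p 0.887, edgeR) without WT1. Its direction thus changed when WT1 was left out. It was not settled without WT1 either, and ran from -0.16 to 0.0278 when another library was left out. The Pdcd1 level was 31.4 to 54.6 times the Cd274 level per kb in WT and 36.3 to 44.4 times in KO, and the groups overlapped.

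**Figure D2:**
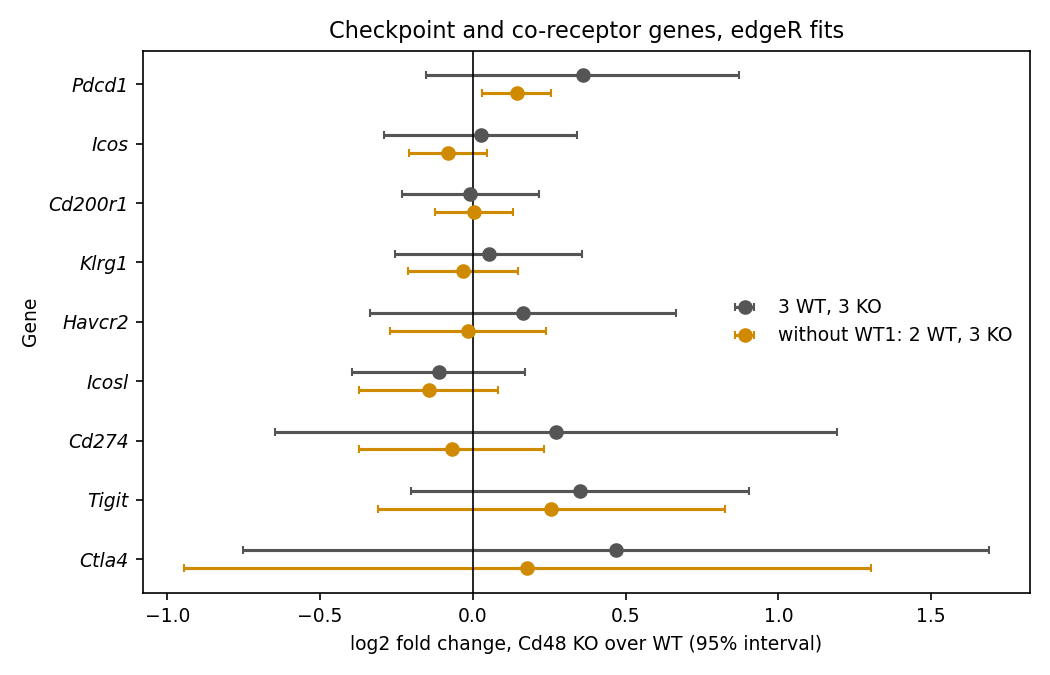
Log2 fold change of Cd48 KO over WT for the 9 tested genes, with 95% intervals, from the edgeR fit of all 6 libraries (grey) and of the 5 libraries without WT1 (orange). Every interval includes 0 except that of Pdcd1 without WT1, which runs from 0.03 to 0.26.

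Ctla4 and Lag3 were barely measured. Ctla4, whose product takes B7 ligands away from CD28, had 5, 15 and 21 counts in the WT libraries and 22, 15 and 12 counts in the KO libraries. These sums of 41 and 49 counts have exact 95% Poisson intervals of 29.4 to 55.6 and 36.3 to 64.8 counts, which cover counting error only. The sums are not scaled to library size, which was largest in WT3. Its log2 fold change of 0.47 had an interval from -0.75 to 1.69 (edgeR with all libraries), or from 0.593 to 3.23 times the WT level. Without WT1, the low library, the log2 fold change was 0.18 and the interval ran from -0.95 to 1.30, or from 0.519 to 2.47 times the WT level. Lag3, whose product binds MHC class II, had 3, 4 and 4 counts in WT and 1, 3 and 2 counts in KO, or 11 against 6 counts. The exact Poisson intervals of these sums, 5.49 to 19.7 and 2.20 to 13.1 counts, overlap, again without scaling to library size. RefSeq places the start of Ctla4 inside the gene span given above, and a ribosomal pseudogene (Rpl18-ps1) overlaps that span on the same strand.

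Tigit, the gene of a receptor for the poliovirus receptor PVR (CD155), stood at 2.86, 3.14 and 3.88 CPM in WT and at 4.15, 4.61 and 3.89 CPM in KO. Every KO library was above every WT library, but by a narrow margin between WT3 and KO3, and with library totals in place of TMM the groups overlapped (2.75 to 3.94 against 3.92 to 4.65 CPM). The log2 fold change was 0.35 (SE 0.23, adjusted p 0.693, edgeR) with all libraries and 0.26 (SE 0.26, adjusted p 0.748, edgeR) without WT1. Havcr2, the gene of TIM-3, stood at 23.4, 37.6 and 35.9 CPM in WT and at 31.9, 36.8 and 39.8 CPM in KO. Its groups overlapped and WT1 was the low library. The log2 fold change was 0.16 (interval -0.34 to 0.66) with all libraries and -0.02 (interval -0.27 to 0.24) without WT1.

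Icos and its ligand gene were both transcribed, the receptor above the ligand. Icos stood at 293.6, 393.4 and 361.1 CPM in WT and at 371.4, 347.6 and 347.7 CPM in KO, with overlapping groups. Its log2 fold change was 0.03 (interval -0.29 to 0.34) with all libraries and -0.08 (interval -0.21 to 0.05) without WT1. Icosl stood at 33.4, 36.4 and 35.7 CPM in WT and at 32.7, 33.2 and 31.7 CPM in KO. All KO libraries were just below all WT libraries, an order lost with library totals in place of TMM, where the ranges were 32.04 to 36.6 and 31.96 to 33.5 CPM. The log2 fold change of Icosl was -0.11 (SE 0.12, adjusted p 0.737, edgeR), and -0.14 (SE 0.10, adjusted p 0.609, edgeR) without WT1, when its interval ran from 0.773 to 1.06 times the WT level. Per kb, Icos exceeded Icosl 7.64, 9.39 and 8.78 times in WT and 9.87, 9.09 and 9.52 times in KO. These ratios depend on the transcript length used, since with the length of all exons together Icosl fell to 7.33 CPM per kb on average and Icos to 102.8 CPM per kb. The exact permutation test of this ratio gave p = 0.2 (two-sided, 3 against 3, smallest possible p 0.1).

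Klrg1 and Cd200r1 had log2 fold changes near 0. Klrg1, the gene of a cadherin receptor, stood at 78.98, 96.5 and 95.5 CPM in WT and at 86.5, 99.1 and 95.3 CPM in KO. Its log2 fold change was 0.05 with all libraries (interval 0.838 to 1.28 times the WT level) and -0.03 without WT1 (0.862 to 1.11 times). Its direction changed when WT1 was left out, and changed again to 0.0255 when KO1 was left out as well. Cd200r1 stood at 270.7, 269.3 and 262.8 CPM in WT and at 256.7, 270.7 and 271.0 CPM in KO. Its spread was 1.58% of the mean (CV) in WT, the narrowest of the 10 genes, and 3.07% in KO, where Pdcd1 and Icosl (2.30%) varied less. Here WT1 was level with the other libraries. Its log2 fold change was -0.008 (interval -0.23 to 0.22) with all libraries and 0.004 (interval -0.13 to 0.13) without WT1, or from 0.917 to 1.10 times the WT level. The intervals of Klrg1 and Cd200r1 without WT1 leave room for differences of about these sizes, and do not show that the genotypes are alike.

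WT1 deviated from WT2 and WT3 by a different amount for each receptor. The difference in log2 CPM was -1.49 for Cd274, -1.09 for Ctla4, -0.79 for Pdcd1 and -0.65 for Havcr2. It was -0.36 for Icos, -0.28 for Klrg1 and Tigit, -0.11 for Icosl and 0.03 for Cd200r1. Over all tested genes the median difference of WT1 was 0.29 for transcripts of 1000 to 2000 bases, 0.03 for 2000 to 4000 bases and -0.91 for at least 8000 bases. Pdcd1 (1930 bases), Ctla4 (1933 bases) and Klrg1 (1414 bases) were thus below the median for their length. Cd274 (3622 bases), Icos (3241 bases), Havcr2 (2721 bases) and Icosl (2814 bases) were also below theirs. Tigit (919 bases) was below the median of 0.32 for 500 to 1000 bases. Only Cd200r1 (2768 bases) was level with its median. The spread of genes around these medians is not given here. Removing a trend on transcript length from each library left the log2 fold change of Pdcd1 at 0.42 and that of Cd274 at 0.24 with all 6 libraries, neither called by edgeR (adjusted p 0.663 and 0.820). The short transcripts of Tigit and Klrg1 moved more, to 0.48 and 0.15, and were not called either (adjusted p 0.652 and 0.758, edgeR).

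**Figure D3:**
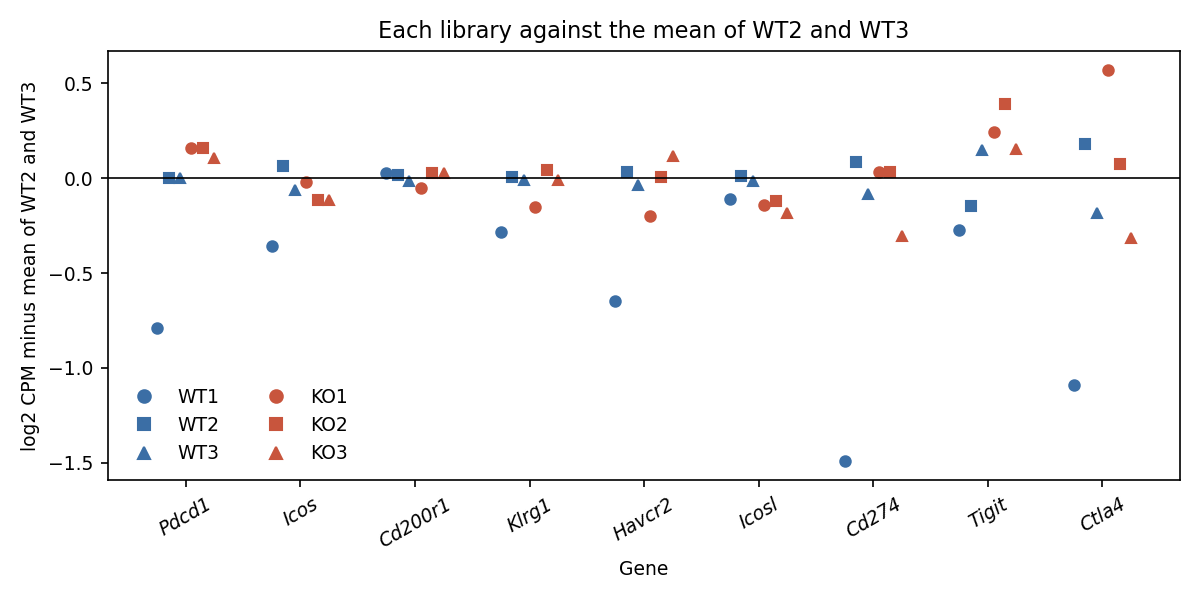
Log2 CPM of each library minus the mean of WT2 and WT3 for the 9 tested genes, WT in blue and Cd48 KO in red. WT1 lies at -1.49 for Cd274 and -0.79 for Pdcd1 but at 0.03 for Cd200r1, and the KO libraries lie above 0 for Pdcd1 and Tigit and below 0 for Icosl and Icos.

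Of the 9 tested genes, 3 had groups that did not overlap in CPM with all libraries (Pdcd1 and Tigit higher, Icosl lower in KO), beside 19.3% of all tested genes. Without WT1 the same 3 did not overlap, beside 30% of all tested genes. Pdcd1 was the only one of them whose groups stayed apart with library totals in place of TMM. The Pdcd1 level per kb was 1.45, 1.87 and 2.04 times that of Icos in WT and 2.21, 2.36 and 2.28 times in KO. All KO ratios were above all WT ratios, with p = 0.1 in the exact permutation test (two-sided), the smallest p that 3 against 3 libraries can give. This ratio was chosen after its values were seen.

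The ligands, further receptors, signalling proteins and transcription factors of these pathways did not pass the test either. Of 12 tested ligands and partners 0 were called with all libraries and 0 without WT1 (edgeR), and 1 and 2 had an unadjusted p under 0.05. Over all tested genes the shares were 0.03% and 1.82% called, and 6.89% and 13.7% at such a p. The abundant ones were Hmgb1 and the galectin genes Lgals9 (ligands proposed for TIM-3) and Lgals3 (a ligand of LAG-3), whose log2 fold changes were -0.23, -0.10 and -0.27 when WT1 was included and 0.08, 0.004 and -0.03 without WT1. Pvr, the ligand gene for TIGIT, stood at 4.26, 14.5 and 17.5 CPM in WT and at 18.7, 18.3 and 17.9 CPM in KO, and its log2 fold change was 0.59 (SE 0.46) with all libraries and 0.19 (SE 0.15) without WT1, the low library. Of 11 further receptors tested with all libraries 0 were called, as were 0 of 12 without WT1 (edgeR), and 3 and 4 had an unadjusted p under 0.05, beside 6.89% and 13.7% of all tested genes. Their median log2 fold change was 0.16 with all libraries and 0.27 without WT1.

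CD226 is the activating receptor that shares PVR with TIGIT and CD96. Cd226 stood at 104.8, 107.8 and 102.1 CPM in WT and at 123.7, 134.0 and 126.0 CPM in KO. The groups did not overlap, also with library totals in place of TMM, and WT1 was level with the other WT libraries. The log2 fold change was 0.29 (SE 0.10, adjusted p 0.690, edgeR) with all libraries and 0.29 (SE 0.07, adjusted p 0.0811, edgeR) without WT1. Cd96 stood at 21.1, 15.2 and 14.2 CPM in WT and at 13.6, 11.01 and 11.2 CPM in KO, with no overlap. Its log2 fold change was -0.50 (SE 0.21, adjusted p 0.690, edgeR) with all libraries and -0.30 (SE 0.16, adjusted p 0.462, edgeR) without WT1. Lilrb4a, the gene of the inhibitory receptor gp49B, stood at 241.0, 264.5 and 261.6 CPM in WT and at 293.4, 278.6 and 286.1 CPM in KO. Its log2 fold change was 0.16 (SE 0.10) with all libraries and 0.12 (SE 0.06, adjusted p 0.365, edgeR) without WT1. Cd200r4, a relative of Cd200r1 in the same gene cluster, stood at 18.9, 14.02 and 13.7 CPM in WT and at 18.3, 17.3 and 19.2 CPM in KO. WT1 lay within the KO range, so the groups overlapped, and the log2 fold change was 0.24 (SE 0.18) with all libraries and 0.41 (SE 0.14, adjusted p 0.212, edgeR) without WT1. Lilrb4a and the Cd200r genes have close relatives, so the division of their reads is uncertain.

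Of 21 signalling genes, 0 were called with all libraries and 0 without WT1 (edgeR), and 4 and 2 had an unadjusted p under 0.05, beside 6.89% and 13.7% of all tested genes. Their median log2 fold change was -0.22 with all libraries and -0.06 without WT1. The lipid phosphatase gene Inpp5d (SHIP-1) stood at 362.5 to 415.2 CPM in every library but WT1, where it was at 194.0 CPM. With all libraries the log2 fold changes were 0.24 for Inpp5d, 0.24 for the PI3 kinase gene Pik3cd, 0.11 for the PD-L1 stabiliser gene Cmtm6 and -0.39 for the adaptor gene Ap2m1, which serves CTLA-4 uptake. Without WT1 they were -0.03, -0.06, -0.008 and -0.03. Of 19 transcription factors 0 were called in either fit (edgeR), and 4 and 5 had an unadjusted p under 0.05, beside 6.89% and 13.7% of all tested genes. Tox2, a relative of the exhaustion factor TOX, stood at 99.5, 109.7 and 119.3 CPM in WT and at 153.3, 126.8 and 128.8 CPM in KO, with a log2 fold change of 0.32 (SE 0.13) with all libraries and 0.25 (SE 0.09, adjusted p 0.224, edgeR) without WT1. Stat3 had a log2 fold change of 0.09 with WT1 and 0.01 without it, and Nfatc2 one of 0.54 and 0.11.

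**Figure D4:**
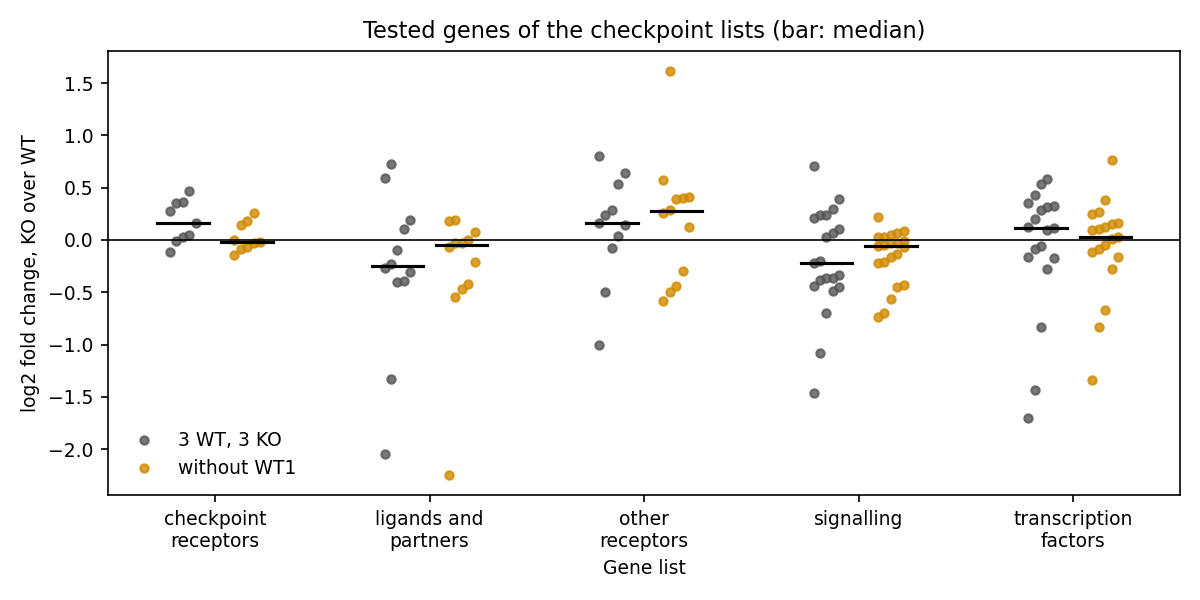
Log2 fold change of Cd48 KO over WT for the tested genes of the checkpoint receptor set and 4 related lists, from the edgeR fit of all 6 libraries (grey) and without WT1 (orange). Bars are medians, which without WT1 run from -0.06 for signalling genes to 0.27 for further receptors, and no gene shown passed the test.

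The genes whose log2 CPM followed the 3 most abundant receptors most closely were sought among the 8676 genes that averaged 10 CPM or more. For Pdcd1 they were Coro7, Luzp1 and Copg1, with Pearson's r over the 6 libraries of 0.9997, 0.9987 and 0.9986, and 0.999, 0.983 and 0.998 without WT1. For Icos they were Acox3, Osgin1 and Acot8 (r 0.994, 0.993 and 0.991), and 0.980, 0.968 and 0.993 without WT1. For Cd200r1 they were Nudt2, Wdr55 and Ndufs6 (r 0.979, 0.963 and 0.961), and 0.978, 0.962 and 0.971 without WT1. These values share libraries, depth and scaling, rest on 6 points, and are the highest of many, so they are descriptions only.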

How the data were processed

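RNA of IL-33-treated lung ILC2s (3 WT and 3 Cd48 KO samples, grouped by title) was prepared with a SMARTer ultra-low-input kit, per the labels' protocols. The table the authors deposited holds estimated counts that were not normalized, which was read from its values (none negative, differing library totals, 60.2% of non-zero values whole within 0.001). Tools listed in the submitters' processing notes are Partek 10.0, STAR 2.7.8 and DESeq2, with the build mm10. How reads were counted (tool, annotation, strand) is not given in the sources used here.

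Estimated counts were rounded and tested in R 4.3.3 with edgeR 4.0.16 (robust quasi-likelihood fit, TMM, filterByExpr with minimum count 10 and total 15, genotype as the only term, Benjamini-Hochberg adjustment, threshold 0.05). Each SE was derived from the log2 fold change and its F statistic, and 95% intervals use the moderated t distribution. limma 3.58.1 and DESeq2 1.42.0 served as alternatives, with other size factors, filters, a non-robust fit, a threshold of 0.1, a replicate block, a length trend (lowess span 0.3) and left-out libraries. CPM are scaled to TMM library sizes, and log2 CPM uses a prior count of 2. Symbols of 97.6% of genes matched GENCODE M21 (GRCm38), which gave positions and lengths. The tests were tested on simulated data. As a check for duplicate libraries, replicate pairs were compared, and none agreed within counting noise (chi-square per gene 5.51 to 153.6).

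The genes and lists were chosen with earlier results of these data known. The named genes are the 10 receptors, Cd48, the 4 most abundant and any called genes of each related list, and the 3 genes most like each of the 3 most abundant receptors; Cd96 and Cd200r4 fall under this rule. One gene that the rule names is not reported here. List genes outside the table are not analysed here. The lowest total of any gene in the table was 10 counts over the 6 libraries, and Lag3 had 17. Whether absent list genes were left out for low totals was not tested.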

Additional observations from a re-analysis of the deposited data

How the results depend on the processing

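None of the 9 tested receptors was called under any alternative, with or without WT1. The lowest adjusted p was 0.160 (Pdcd1 without WT1, edgeR with the replicate block). Pdcd1, Tigit and Icosl kept their direction under every alternative of both fits in which they were tested. Over the whole table, edgeR called 4 genes with all libraries, against 108 with DESeq2, 95 with limma-voom and quality weights, 0 with the replicate block and 0 to 248 with 1 library left out (0 if KO1 or KO3 was left out, 248 if WT1 was). Without WT1, 248 genes were called, against 412 with DESeq2, 157 with a fit that was not robust, 420 at an adjusted p under 0.1, 570 with the replicate block and 65 to 517 when another library was left out (WT2 89, WT3 141, KO1 517, KO2 73, KO3 65). In the block fit without WT1, KO1 had no WT library of its number and added nothing to the genotype difference. Libraries of the same number did not deviate together (r of -0.046, -0.036 and -0.0091). Other WT and KO pairs gave r of -0.034 to 0.066. With so few libraries, these values cannot show whether those of the same number were prepared together. The block changed no call among the receptors.

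Log2 fold changes of several receptors changed sign. With all libraries, quality weights gave -0.0442 for Cd274, -0.0924 for Icos, -0.0148 for Klrg1 and 0.00267 for Cd200r1. Cd200r1 was 0.0113 with library totals, 0.00536 with no filter and 0.0082 with the length trend. With 1 library left out the ranges were -0.0689 to 0.544 for Cd274, -0.016 to 0.288 for Havcr2, -0.0821 to 0.121 for Icos, -0.0328 to 0.106 for Klrg1 and -0.0251 to 0.0184 for Cd200r1. Without WT1, the replicate block, to which KO1 added nothing, gave -0.127 for Ctla4, 0.0708 for Havcr2 and 0.0249 for Klrg1. Leaving KO1 out instead gave nearby values of -0.107, 0.0706 and 0.0255. Also without WT1, quality weights gave 0.00166 for Havcr2, and Cd200r1 was -0.00455 with library totals and -0.00486 with the length trend. With another library left out the ranges were -0.16 to 0.0278 for Cd274, -0.107 to 0.383 for Ctla4, -0.0993 to 0.0706 for Havcr2, -0.0784 to 0.0255 for Klrg1 and -0.0205 to 0.0337 for Cd200r1. The cause was not tested. With the length of all exons together, chosen after seeing the data, Icosl stood at 7.33 and Cd200r1 at 79.7 CPM per kb. The order of the mean levels of the 10 genes was the same. Icosl was then close to Cd274, whose highest library stood at 7.22 CPM per kb. Ctla4 and Lag3 rest on at most 22 and 4 counts per library.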
